A study of Arabidopsis thaliana with 8 samples.

Results

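The 10 Arabidopsis thaliana genes described here are little-characterised loci, several of them associated with the cell wall, that were picked because of their place in the gradient of maturation along the inflorescence stem. They are AT1G22480, AT1G80170, AT4G28380, AT4G27435, AT3G23090, AT2G27740, AT2G41610, AT1G64360, AT2G31930 and AT3G45160, out of 13333 genes that had a probe set of their own in the array annotation. Each of the 10 was read by exactly 1 probe set, and 10 of 10 passed the filter on dim probe sets. They were selected on their difference in signal between stem base and stem tip, whether in 1 genotype or both is not recorded, so that difference is given as a description without a test. Comparisons of the genotypes within a stem part are tested, but the choice was made with genotype results of these arrays known. A gene picked for a high wild type base is more likely to lie lower in cov there. Likewise, a gene picked for a low wild type tip is more likely to lie higher in cov there.

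RNA came from the base or the tip of the stem of the cov mutant and of the wild type Ler-0 (stock NW20), with 2 ATH1 arrays for each of the 4 groups cov base, wild type base, cov tip and wild type tip. The cov mutant is defective in COV1, an integral membrane protein gene whose loss disturbs the spacing of vascular tissue. All plants were at growth stage 6.10 and grew on compost with Intercept insecticide at 22 °C, 65% humidity and 24 h of light. The labels name neither the cov allele nor its background or backcrosses, so an effect of the lesion and one of the background cannot be told apart. COV1 and its relatives LCV1 and LCV2 had 0 named probe sets, and no check of the genotypes by the mutated gene was made.

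As background, an Arabidopsis stem elongates below its tip and stops growing toward its base. There, xylem vessels and interfascicular fibres lay down a secondary wall of cellulose, xylan and lignin, and pectin in the older walls is remodelled. Many genes switched on in that phase encode proteins whose part in it is not known. Among the 10, AT1G22480 encodes a cupredoxin of the plant-specific phytocyanin type, which are mostly proteins held at the cell surface. AT1G80170 belongs to the pectin lyase-like superfamily, which holds the polygalacturonases that cut pectin, and AT4G28380 encodes a leucine-rich repeat protein. AT4G27435 encodes a membrane protein with the domain of unknown function DUF1218. AT3G23090 is WDL3, a microtubule-associated protein of the TPX2 and WAVE-DAMPENED2-like family, and AT2G27740 encodes a golgin-like protein of the DUF662 family. No role is given here for the remaining 4 genes.

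Values are MAS5 signals, a linear measure of probe brightness per probe set, already scaled by the authors to the same trimmed mean of 100 on every array. Differences are on the scale of log2(signal + 11.85), where the added constant draws low signals together, so a fold given for a gene with low tip signal understates the ratio of signals. Array medians ran from 41.4 in wild type base array 1 to 50.1, and all but that array were at 46.4 or above. Replicate arrays correlated at 0.959 to 0.978 across the 15923 tested probe sets, which are not independent replicates. Each genotype comparison below rests on limma with Benjamini-Hochberg adjustment over all 15923 probe sets, two-sided, with n = 2 arrays in each group.

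The labelled stem parts were set against marker genes. The 3 tested secondary wall genes had summed signals of 1240 to 1760 at cov base and 2320 to 2900 at wild type base, against 225 to 228 at cov tip and 170 to 189 at wild type tip. The 2 tested genes of dividing cells, the Aurora kinase genes AUR1 and AUR2, had the opposite order, at 93.9 to 123 in cov base and 67.4 to 109 in wild type base, against 272 to 291 in cov tip and 253 to 272 in wild type tip. Flower and anther markers were also far higher at the tip. Their 2 tested members, the tapetum gene AT5G07230 and the anther regulator gene AMS, summed to 7.1 to 11.7 in cov base and 4.8 to 22.9 in wild type base, against 823 to 969 in cov tip and 830 to 1120 in wild type tip. None of these marker genes was at 0 in any group. These flower markers thus moved with every base-to-tip difference below, and their part in it was not tested. The tissue is bulk, so fewer cells of a type and less RNA per cell cannot be told apart.

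Signal was higher at the stem base than at the tip for 9 of the 10 genes in both genotypes, with both base arrays above both tip arrays in each of these 9 genes. Over all tested probe sets that was so for 34.1% in cov and for 34.1% in wild type. The exception was AT2G27740, which goes against the description of the group as genes that rise in the maturing stem. The median of base minus tip over the 10 genes was 3.10 in cov and 4.75 in wild type on the log2 scale, against 0 and -0.01 over all tested probe sets.

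**Figure D1:**
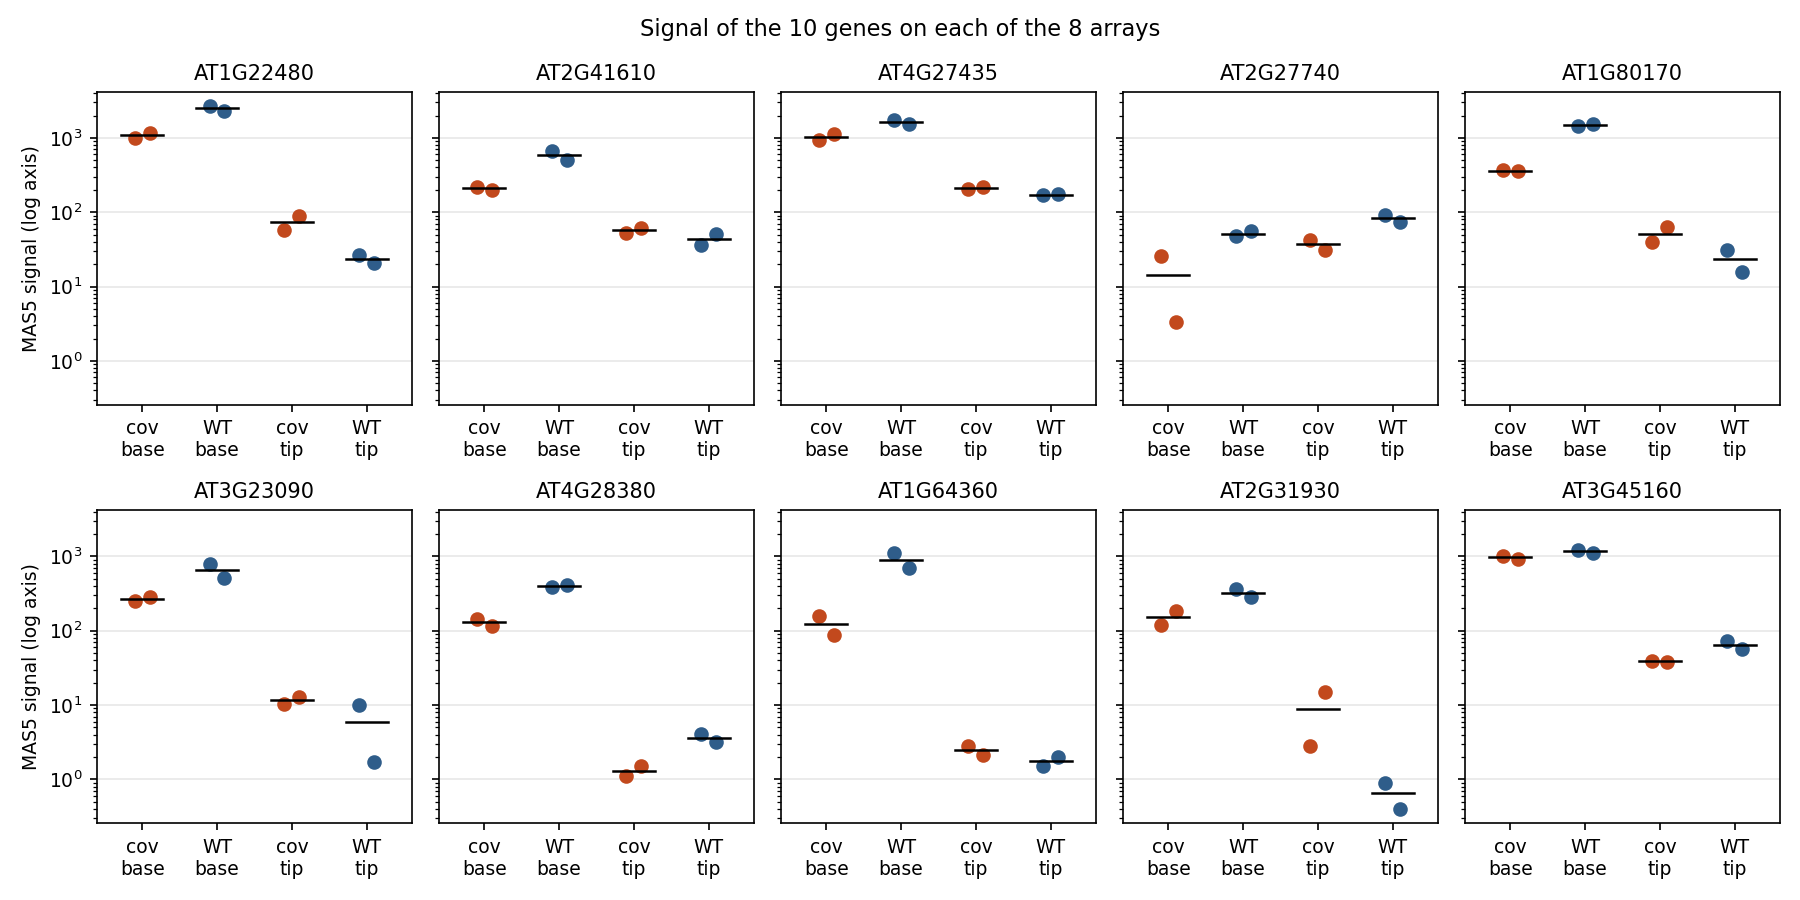
MAS5 signal (log axis, linear signal units) of each of the 10 genes on each of the 8 arrays, with cov in orange, wild type (WT) in blue, a point per array and a bar at the mean of 2 arrays. The base arrays lie above the tip arrays for every gene but AT2G27740, and the cov base arrays lie below the wild type base arrays in all 10 panels.

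Among the genes for surface or wall proteins, AT1G22480 had a signal of 997.2 and 1162.1 in cov base and 2668.7 and 2332.2 in wild type base. At the tip the same gene read 58.1 and 89.5 in cov and 26.6 and 20.7 in wild type. The phytocyanin gene was thus lower in cov where the signal was high and higher in cov where it was low, and the genotypes overlapped in neither part. Its difference of base from tip on the log2 scale was 3.69 ± 0.19 (SE) in cov and 6.15 ± 0.19 in wild type.

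The pectin lyase-like gene AT1G80170 had 368.2 and 355.2 in cov base and 1467.7 and 1520.0 in wild type base. In the tips it had 39.3 and 62.9 in cov and 30.7 and 15.6 in wild type. The cov base arrays stood at 24.2% of the wild type base mean, with replicates of each genotype at the base close together. Its base-minus-tip difference was 2.59 ± 0.23 in cov and 5.46 ± 0.23 in wild type.

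The leucine-rich repeat gene AT4G28380 read 143.2 and 115.1 in cov base and 390.1 and 416.4 in wild type base. Its tip signals were at the bottom of the scale, 1.1 and 1.5 in cov and 4.1 and 3.2 in wild type. At such signals detection cannot be judged here, since detection calls were not used, and the difference of base from tip (3.42 ± 0.19 in cov and 4.74 ± 0.19 in wild type) depends on the added constant.

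Of the genes for membrane, microtubule and Golgi proteins, the DUF1218 gene AT4G27435 had clear signal in every group. It read 944.0 and 1138.0 in cov base and 1751.6 and 1528.2 in wild type base, and 205.4 and 218.2 in cov tip and 169.7 and 174.6 in wild type tip. Base exceeded tip by 2.23 ± 0.15 in cov and 3.16 ± 0.15 in wild type. WDL3 (AT3G23090) read 248.2 and 288.5 in cov base and 789.5 and 514.2 in wild type base. Its tip signals were 10.3 and 12.8 in cov and 10 and 1.7 in wild type. Both genes had non-overlapping genotypes at the base, and the wild type base replicates of WDL3 were the more spread of its base pairs.

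The golgin-like gene AT2G27740 did not follow the others. It read 25.6 and 3.3 in cov base and 47.7 and 55.2 in wild type base, against 42.9 and 30.9 in cov tip and 92.3 and 73.3 in wild type tip. Its base arrays lay below its tip arrays in both genotypes, by -1.02 ± 0.36 in cov and -0.58 ± 0.36 in wild type on the log2 scale. The cov arrays lay below the wild type arrays in both parts. The 2 cov base arrays differed widely from each other, with a standard deviation of 0.92 on the log2 scale against 0.25 or less in the other groups.

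Of the 4 genes for which no role is given, AT2G41610 read 216.2 and 201.6 in cov base and 659.3 and 500.1 in wild type base. Its tips had 52.6 and 61.1 in cov and 35.9 and 51.6 in wild type. The gene had the smallest difference of base from tip in cov among the 9 base-high genes, 1.69 ± 0.19, against 3.41 ± 0.19 in wild type. AT1G64360 read 157.0 and 86.7 in cov base and 1095.9 and 707.9 in wild type base. All its tip arrays had signals of 2.8 or less, namely 2.8 and 2.1 in cov and 1.5 and 2.0 in wild type. The cov base mean of AT1G64360 was 13.5% of the wild type base mean, the lowest such share among the 10 genes.

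AT2G31930 read 119.5 and 183.7 in cov base and 366.0 and 287.5 in wild type base. At the tip it had 2.8 and 14.9 in cov and 0.9 and 0.4 in wild type, so that 1 cov tip array stood apart from the other tips. AT3G45160 read 1023.2 and 919.6 in cov base and 1236.5 and 1100.6 in wild type base, and 39.4 and 37.8 in cov tip and 73.3 and 57.0 in wild type tip. It was the gene of the 10 whose cov base stood closest to wild type, at 83.1% of the wild type mean. Its difference of base from tip was 4.28 ± 0.16 in cov and 3.94 ± 0.16 in wild type.

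**Figure D2:**
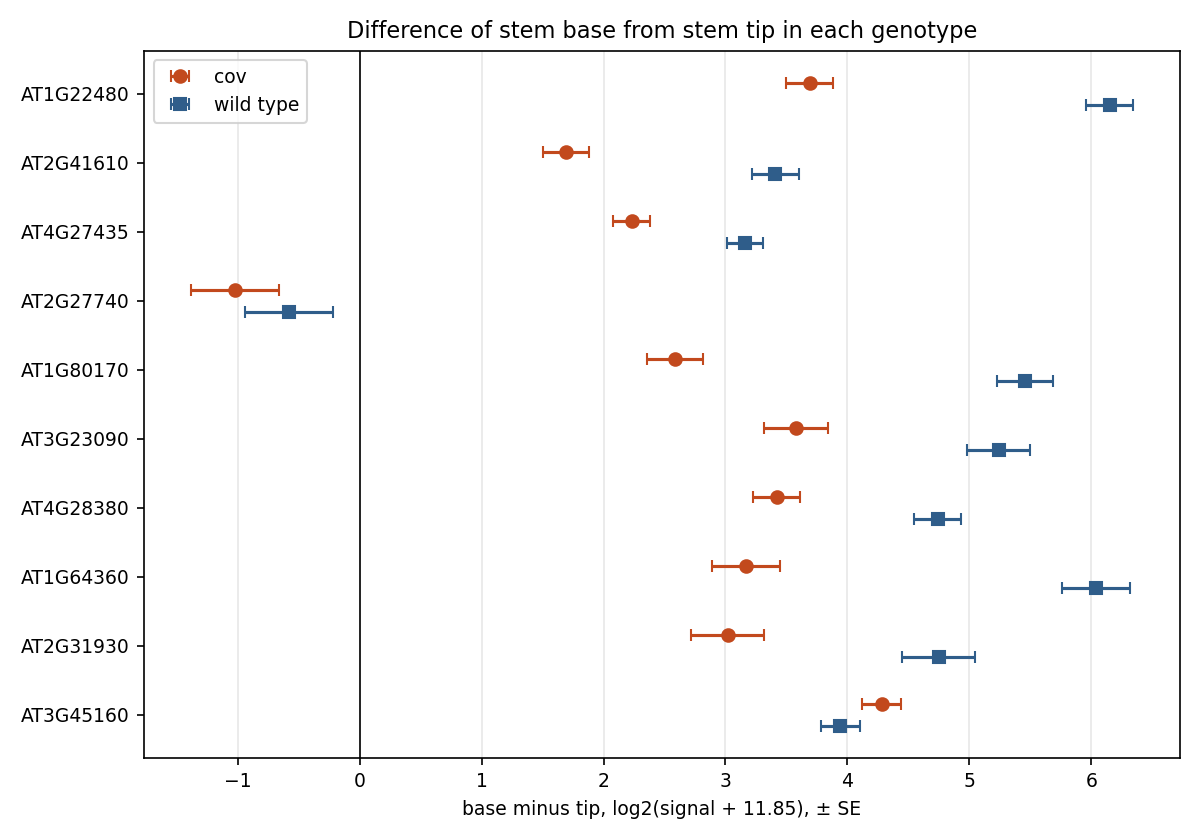
Stem base minus stem tip on the scale of log2(signal + 11.85) for each of the 10 genes, with cov as orange circles, wild type as blue squares and bars of 1 SE from the fit (2 arrays per group). The cov point lies left of the wild type point for 9 genes, while AT3G45160 has 4.28 in cov against 3.94 in wild type and AT2G27740 lies below 0 in both.

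At the stem base, the genotypes were compared to ask how these genes differ in the mature stem of the mutant. Both cov arrays were below both wild type arrays for 10 of 10 genes, an order found for 21.1% of all tested probe sets. By limma 8 genes fell in cov, 0 rose and 2 did not pass, where 2.11% of all probe sets fell and 3.42% rose. With each array centred on its median these shares were 2.44% and 2.49%, and again 8 of the 10 genes fell. At an unadjusted limma p under 0.05, 9 fell and 0 rose, and the share over all probe sets was not computed. Base arrays also entered the choice of the genes, and picking by a high wild type base favours a lower cov there. The counts and p-values at the base are thus not independent of that choice, and no share among base-high probe sets was computed. The median difference over the 10 was -1.31 on the log2 scale, against 0.02 over all probe sets. AT1G64360 was 6.92-fold lower (95% limits 4.53 to 10.6, adjusted p = 0.000328), and AT1G80170 was 4.03-fold lower (2.83 to 5.73, adjusted p = 0.000842). AT4G28380 was 2.96-fold lower (2.20 to 3.98, adjusted p = 0.00117) and AT2G41610 2.66-fold lower (1.97 to 3.58, adjusted p = 0.00214). These 4 genes passed under each of the 8 omissions of an array and each of the 8 other settings tried.

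The other 4 genes that passed at the base lost their calls under some omissions or other settings. AT1G22480 was 2.30-fold lower (adjusted p = 0.00521) and had an adjusted p of 0.0572 without wild type base array 1. WDL3 (AT3G23090) was 2.32-fold lower (1.56 to 3.46, adjusted p = 0.0212), with 0.172 without wild type base array 1, and 0.105 and 0.0581 without cov base array 1 or 2. The call of WDL3 also ended with an added constant of 1 (0.233) and with no filter (0.0611). AT4G27435 was 1.57-fold lower (adjusted p = 0.0288) and passed in 3 of 8 omissions. Its adjusted p was 0.158 and 0.0541 without wild type base array 1 or 2, 0.156 without cov base array 1, 0.0635 and 0.0634 without cov tip array 1 or 2, and 0.0725 with no variance trend. AT2G27740 was 2.65-fold lower (1.53 to 4.59, adjusted p = 0.047) and passed in 1 of 8 omissions, that of cov base array 1. With an added constant of 1, with no filter and with no variance trend its adjusted p was 0.0824, 0.118 and 0.0665. Its log2 difference was -2.06 without cov base array 1 (adjusted p = 0.00288) and -0.75 without cov base array 2 (0.171), against -1.41 with all arrays. Without wild type base array 1, the array of lowest median signal, 4 of the 10 genes passed in place of 8.

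The 2 genes that did not pass at the base were AT2G31930, with -1.07 ± 0.30 (adjusted p = 0.0661), and AT3G45160, with -0.26 ± 0.16 (adjusted p = 0.419). For AT3G45160 the 95% limits of the difference were -0.61 and 0.09. AT2G31930 passed without cov tip array 1 (0.0374) or 2 (0.0402), and with the added constant at the table median (0.0119).

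At the stem tip, 1 of the 10 genes rose in cov and 0 fell by limma, where 1.41% of all probe sets rose and 0.408% fell. That gene was AT1G22480, 2.38-fold higher (95% limits 1.77 to 3.21, adjusted p = 0.00716), and this call was lost on omission of cov tip array 2 (0.0866) and of wild type tip array 2 (0.0662). Both cov tip arrays were above both wild type tip arrays for 7 genes and below them for the other 3, orders found for 22.8% and 20.1% of all tested probe sets. The median tip difference was 0.30, against 0.01 over all probe sets. Tip arrays also entered the choice of the genes, and picking by a low wild type tip favours a higher cov there. The counts, orders and p-values at the tip are thus not independent of that choice. The other values nearest to the threshold were those of AT3G45160, at -0.60 ± 0.16 (adjusted p = 0.112), and AT1G80170, at 0.86 ± 0.23 (adjusted p = 0.122). AT2G27740 had the widest error at the tip, -0.96 ± 0.36 (adjusted p = 0.328). The remaining 6 genes lay between -0.24 in AT4G28380 and 0.66 in AT2G31930. At an unadjusted limma p under 0.05, 3 of the 10 genes rose and 2 fell at the tip, and the share over all probe sets was not computed.

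**Figure D3:**
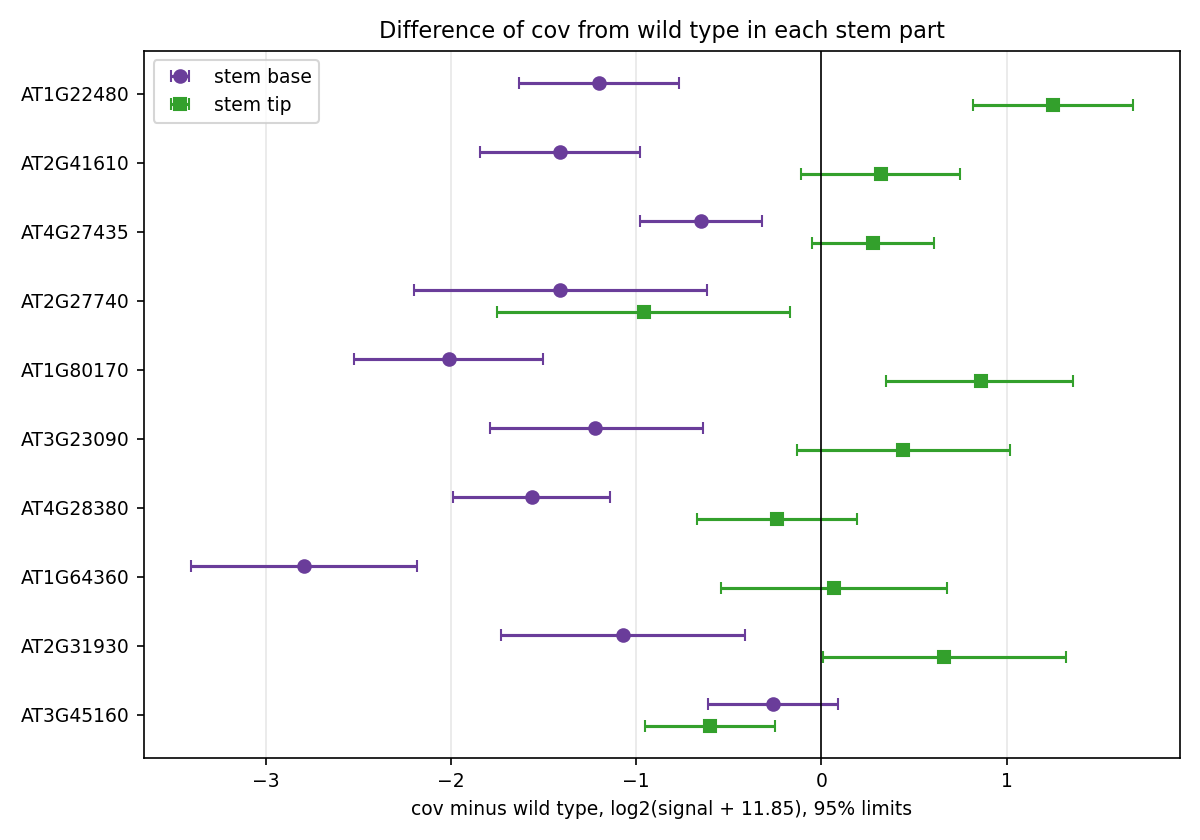
cov minus wild type on the scale of log2(signal + 11.85) for each of the 10 genes, at the stem base (purple circles) and the stem tip (green squares), with 95% limits from the fit (2 arrays per group). All 10 base values lie below 0, from -2.79 in AT1G64360 to -0.26 in AT3G45160, and 7 of the 10 tip values lie above 0.

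The difference of base from tip in cov, less that in wild type, is made from the values that chose the genes, so it is given with its error and without a test. It was negative for 9 of the 10 genes, with a median of -1.69 on the log2 scale. A negative value is a smaller difference in cov for the base-high genes. For AT2G27740, which was lower at the base, it is a larger difference in cov (-1.02 against -0.58 in wild type). The values of AT1G80170, at -2.87 ± 0.32 (SE; 95% limits -3.58 to -2.15), and AT1G64360, at -2.86 ± 0.39 (-3.73 to -2), did not differ beyond their error. AT1G22480 had -2.45 ± 0.28, AT2G41610 -1.73 ± 0.28 and AT2G31930 -1.73 ± 0.42. The value of AT2G31930 depended strongly on the added constant. It was -3.38 with a constant of 1 and -1.14 with the constant at the table median, a range that its error does not cover.

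With the added constant used for the main results, values nearer 0 were found for WDL3 (AT3G23090), at -1.66 ± 0.37, and AT4G28380, at -1.33 ± 0.27. The DUF1218 gene AT4G27435 had -0.93 ± 0.21. With an added constant of 1 the values were -0.63 for AT4G28380, -2.44 for WDL3 and -1.84 for AT2G41610. With the constant at the table median they were -1.29, -1.27 and -1.48. The order of the genes thus depended in part on the constant, which the errors do not cover. AT2G27740 had -0.45 ± 0.51 (95% limits -1.57 to 0.67), and 0.21 without cov base array 2, so its sign rests on that array. AT3G45160 had a positive value, 0.34 ± 0.22, with 95% limits of -0.16 and 0.84.

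A smaller difference of base from tip in cov was common among base-high probe sets. The 2455 probe sets called higher at the base in cov had a median of 0.94 in cov and 1.17 in wild type, and 68.9% of them had the smaller value in cov. The 3510 called higher in wild type had medians of 0.67 in cov and 1.02 in wild type, and 87.8% of them had the smaller value in cov, a share that their choice by the wild type raises. For the 9 base-high genes described here the medians were 3.17 in cov and 4.75 in wild type, and 88.9% of the 9 had the smaller value in cov, close to the 87.8%.

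The relatives of 6 of the genes were followed through lists of loci in their families, with the 6 themselves left out of the counts. Among 10 tested DUF1218 genes, 3 were higher at the base in cov and 0 lower, and in wild type 3 were higher and 2 lower, where 15.4% and 15.8% of all probe sets were higher and lower in cov and 22.0% and 24.4% in wild type. The family medians were 0.23 in cov and -0.08 in wild type. AT4G19370 and AT1G31720, known as MODIFYING WALL LIGNIN genes, had a base-minus-tip difference of 1.65 (adjusted p = 0.00296) and 1.11 (adjusted p = 0.00476) in cov, and of 2.48 (adjusted p = 0.000105) and 1.72 (adjusted p = 0.000154) in wild type. AT4G31130 was the family member that fell in cov at the base, by 1.02 ± 0.15 (adjusted p = 0.00313), with a mean signal of 213 in cov and 445 in wild type.

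The phytocyanin list, which holds the relatives of AT1G22480, had 5 tested members of 32 loci. Of these 2 were higher and 1 lower at the base in cov, and the same counts were found in wild type. AT1G72230 had 0.74 in cov (adjusted p = 0.00879) and 1.25 in wild type (adjusted p = 0.000181), and AT5G26330 had 1.10 in cov (adjusted p = 0.00144) and 0.59 in wild type (adjusted p = 0.0274). The plantacyanin gene ARPN was lower at the base, by -1.59 in cov (adjusted p = 0.000161) and -1.74 in wild type (adjusted p = 3.74e-05). At an adjusted limma p under 0.05, 0 of the 5 differed between the genotypes in either part. At an unadjusted one 1 was lower in cov at the base and 0 differed at the tip.

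The polygalacturonase list ran mostly the other way from AT1G80170. Of 18 tested genes 4 were higher and 8 lower at the base in cov, and 3 higher and 10 lower in wild type, with medians of -0.66 and -0.90. Between genotypes at the base 4 rose in cov and 1 fell, with a median of 0.41 against 0.02 over all probe sets. AT1G60590 rose by a log2 difference of 1.35 (adjusted p = 0.00465), AT4G23820 by 1.13 (adjusted p = 0.00894) and AT1G10640 by 1.23 (adjusted p = 0.0116), and all 3 had lower signal at the base than at the tip. AT1G10640, for example, had a mean signal of 35.2 in cov base and 8.75 in wild type base, against 299 in cov tip and 356 in wild type tip. AT3G42950, which was higher at the base as AT1G80170 was, fell in cov there by 0.78 (adjusted p = 0.0365), with 224 in cov and 388 in wild type. Between genotypes at the tip 0 of the 18 rose in cov and 1 fell by limma. That was AT3G07820, with a log2 difference of -1.96 (adjusted p = 0.0421) and mean tip signals of 65.8 in cov and 282 in wild type. Its tip arrays were widely spread, at 33.5 and 98.2 in cov and 180.1 and 383.8 in wild type. At the base its mean signal was only 5.85 in cov and 1.4 in wild type.

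In the families of WDL3, AT4G28380 and AT2G27740, 0 tested relatives differed between genotypes in either part at an adjusted limma p under 0.05. At an unadjusted p under 0.05, 0 of the TPX2 genes did, 2 leucine-rich repeat genes were higher at the base and 1 lower at the tip, and 1 DUF662 gene was lower at the base. Of 8 TPX2 and WAVE-DAMPENED2-like genes 1 was higher and 3 lower at the base in cov, and 1 higher and 4 lower in wild type. Of 8 leucine-rich repeat extensins and related genes 0 were higher and 1 lower in cov, and 0 higher and 2 lower in wild type. The one lower in both was the extensin-type gene AT4G18670, with -1.18 in cov (adjusted p = 0.00138) and -1.40 in wild type (adjusted p = 0.000231). Of 4 DUF662 genes 1 was higher and 0 lower in cov, and 1 higher and 1 lower in wild type. The described member lay above every tested relative in both genotypes for the phytocyanins, DUF1218 genes, polygalacturonases, TPX2 and leucine-rich repeat genes, which its choice by this contrast made likely.

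**Figure D4:**
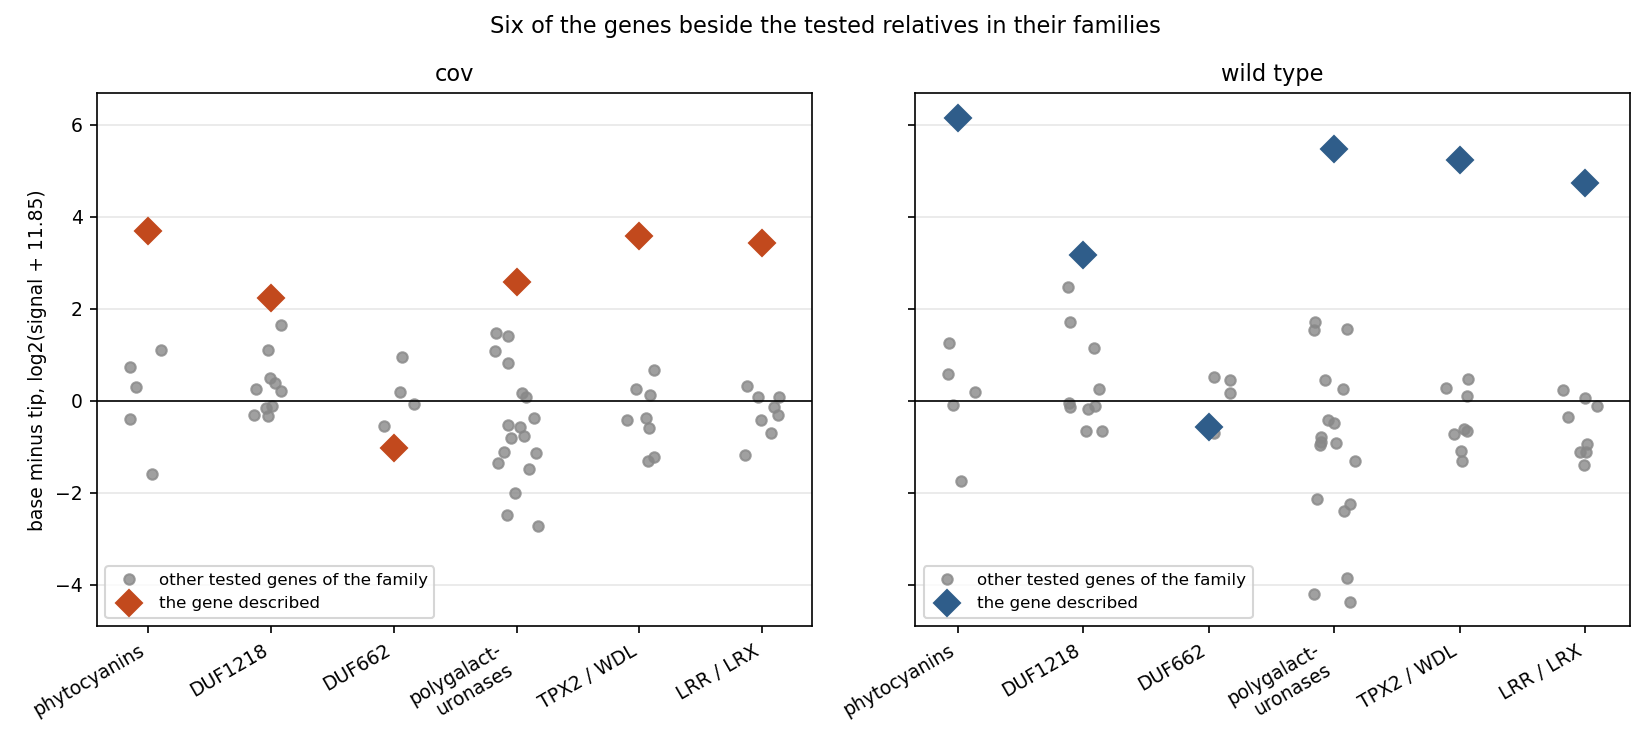
Stem base minus stem tip on the scale of log2(signal + 11.85) in cov (left) and wild type (right), for 6 of the genes (diamonds) and the tested relatives in each family (grey points, 1 per gene, spread sideways only for legibility). The diamonds lie above the grey points in 5 families. In the DUF662 family AT2G27740 lies below 0 in both panels, under every tested relative in cov and among them in wild type.

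Named secondary wall genes in the annotation were few, 3 of 36 loci listed. The xylan genes IRX15, IRX15-L and GUT2 had base-minus-tip differences of 3.07, 2.29 and 2.51 in cov and of 4.53, 3.37 and 3.36 in wild type. At the base 2 of these 3 fell in cov, IRX15 by 1.18 (adjusted p = 0.00884) and IRX15-L by 0.72 (adjusted p = 0.0391). Of the lignin list 2 of 21 loci were tested, and HCT, an enzyme of monolignol synthesis, fell at the base by 0.60 (adjusted p = 0.047) while the peroxidase gene PRX52 rose by 1.09 (adjusted p = 0.0325).

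Likeness was measured as Pearson's r of log2 values over the 8 arrays, which mainly reflects the split of the arrays into base and tip and is given as a description. Among the 9 base-high genes r lay between 0.92 and 1, and between AT2G27740 and these it lay between -0.47 and -0.19. The mean profile of the 10 genes had r above 0.95 with 772 probe sets, which is 4.85% of those tested. The probe sets of the 10 genes themselves were not left out of this count. The 5 named genes outside the group most like that profile were AT1G07120 (r = 0.9972), the germin-like gene AT1G18980 (0.9969), AT1G07280 (0.9942), the glyoxalase family gene GLX2-5 (0.9942) and AT5G56140 (0.9941). AT1G18980, for instance, read 71.3 and 66.4 in cov base, 184.7 and 194.4 in wild type base, 2.3 and 2.7 in cov tip and 2.7 and 3.6 in wild type tip.

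Gene by gene, the closest profile to AT4G27435 was that of IRX15-L (r = 0.9992). For AT1G22480 it was AT5G18780 (0.9991), for AT4G28380 the germin-like gene AT1G18980 (0.9988), and for AT2G31930 AILP1 (0.998). AT2G41610 was closest to the kinase gene NCRK (0.9966), WDL3 to AT3G17410 (0.9964), AT1G64360 to AT3G22240 (0.9956) and AT1G80170 to AT2G31800 (0.9947). AT3G45160 was closest to AT5G56260 (0.9936), which had base-minus-tip differences of 1.24 in cov and 1.30 in wild type. AT2G27740 was closest to AT3G55760 (0.9726), which like it had its lowest signal on cov base array 2, 18.9, against 34.4 on cov base array 1 and 46.1 and 57.7 in wild type base.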

How the data were processed

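Per the submitters' processing notes, the deposited values are MAS5 signal intensity from Affymetrix ATH1 arrays. Neither the MAS5 version nor detection calls were at hand. There were 22810 probe sets on 8 arrays, with 0 columns of no sample. Each array had a mean of 100 once 2% of values were trimmed at both ends, so no normalization was added. The 64 control probe sets were left out, as were 6823 with a mean signal below 21.36, the 30th percentile. Gene names came from the array annotation (13513 probe sets with 1 gene, 503 with several, 8730 with none), with 13436 brought up to date through RefSeq (TAIR10.1). A constant of 11.85, equal to 0.25 of the overall median (47.4), went in before log2, and limma 3.58.1 in R 4.3.3 fitted 4 group means with a variance trend (4 residual degrees of freedom, median total 10.6). P-values were adjusted within a contrast at a threshold of 0.05. The procedure was tested on simulated data.

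The members and lists were chosen with earlier results of these data known. All 10 members are named, as are the 5 genes most like the mean profile and 1 per member. The genes named from the lists are among the up to 4 of smallest p per list and contrast. Not all of those are named. An interaction test of the members had been planned and run; its p-values are not reported, because it uses the values that chose them. Family lists were tested as counts and medians only. Alternatives changed the constant, the filter, the normalization, the variance trend and the pairing, and left out each array. Whether replicates came from separate plants is not given in the labels, so p-values measure only the spread between these samples, which may be technical, and the number of arrays limits the precision.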

Additional observations from a re-analysis of the deposited data

Results flagged for a closer look

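For 7 of the 10 genes the genotypes lay in opposite order in the stem parts, with both cov arrays below both wild type arrays at the base and above them at the tip. Singly these orders were found for 21.1% and 22.8% of all tested probe sets, and the share with both was not computed. Picking genes by a high base and a low tip in the wild type favours both orders. The count of 7 is thus not independent of that choice. The tip order of AT1G64360 rests on signals of 2.8 or less, and those of WDL3 and AT2G31930 on signals of 14.9 or less. The genotypes' base-minus-tip differences, cov minus wild type on the log2 scale, were -2.45 for AT1G22480, -1.73 for AT2G41610, -0.93 for AT4G27435, -2.87 for AT1G80170, -1.66 for WDL3 (AT3G23090), -2.86 for AT1G64360 and -1.73 for AT2G31930. These differences were not tested for the 10 genes, because the base-minus-tip values chose them. For AT1G22480 the genotype difference was -1.20 at the base and 1.25 at the tip, each past the threshold with all arrays. No group here had enough arrays for a check of single outlying arrays.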

How the results depend on the processing

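The added constant moved the members' median base-minus-tip difference, to 1.96 in cov and 3.29 in wild type at the table median and to 4.07 in cov and 6.24 in wild type at 1, against 3.10 and 4.75. The median of cov minus wild type of that difference, -1.69, was -1.28 at the table median and -2.14 at 1. Leaving out each array in turn gave medians of 2.90 to 3.29 in cov and 4.69 to 4.81 in wild type, 4 to 7 members lower in cov at the base (8 with all arrays), 0 to 1 higher at the tip (1), and a median of -1.91 to -1.44 for the base-minus-tip difference in cov less that in wild type. Over all probe sets the calls ranged from 440 to 873 at the base (881), 116 to 350 at the tip (290), 2870 to 5062 for base against tip in cov (4978), 6003 to 7434 in wild type (7391) and 111 to 465 for the difference of base-minus-tip values between genotypes (342). That last count was 139 with no filter and 227 with no variance trend. Of the members' directions, only that of AT2G27740 in the base-minus-tip difference, cov minus wild type, turned, lying between -1.10 and 0.21 over the omissions, the last without cov base array 2. Apart from array omissions, at least 1 of the other settings ended the base calls of 3 members (AT2G27740 in 3 settings, WDL3 in 2 and AT4G27435 in 1), 1 of them added that of AT2G31930, and none changed a call at the tip. AT2G27740 was not tested under the stricter filter, at the 50th percentile. Median centring moved base minus tip over all probe sets in wild type from a median of -0.01 to 0.11. Causes of these changes were not tested. The replicate numbers in the titles are not said to pair the samples, and differences between replicates of the 4 groups correlated at -0.04 to 0.16. With the replicate number as a block, members lower in cov at the base numbered 8, as without it, and the calls over all probe sets were 890 at the base, 299 at the tip and 326 for the difference between genotypes of base minus tip.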
